A study of Mus musculus with 12 samples.

Results

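The genes described here are 7 members of the cellular handling of glucose at the point of entry, of 18351 genes in the deposited table. They are the facilitative glucose transporters Slc2a1, Slc2a2 and Slc2a3, the hexokinases Hk1, Hk2 and Hkdc1, and G6pc2. They were taken by gene name, with earlier results of these data known. All 7 had a mean of at least 1 normalised count and entered every test.

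Glucose crosses the beta cell membrane through SLC2A transporters, and hexokinases then phosphorylate it to glucose 6-phosphate. In rodent beta cells SLC2A2 (GLUT2) is the main carrier, with a low affinity that lets uptake follow blood glucose, while SLC2A1 (GLUT1) and SLC2A3 (GLUT3) are high-affinity carriers used by many other cell types. HK1 and HK2 have a high affinity for glucose and are normally low in mature beta cells, whereas G6PC2 is an islet enzyme that turns glucose 6-phosphate back into glucose and so opposes phosphorylation.

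Islet RNA of Aldh1b1tm1lacZ null mice was sequenced next to that of wild-type mice, at postnatal day 1 (P1) and in adults of 8 weeks (week 8), and each of the 4 combinations had 3 libraries. The null allele is a lacZ knock-in present in all cells throughout life, and it is the only allele that the study names as separating the genotypes. Each P1 library pooled the islets of 3 mice and each week 8 library came from 1 mouse, so an SD at P1 is a spread between pools and an SD at week 8 is a spread between animals. Islets were from male mice and were kept briefly in RPMI-1640 with serum before RNA was prepared, a treatment shared by all groups. Week 8 null animals are named here by their labels, MUT218, MUT219 and MUT229. A normalised count is the number of reads of a gene divided by a size factor of the library.

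Libraries held 15212080 to 29248285 reads assigned to genes, and the 7 genes were counted with 26 to 41670 reads per library. Aldh1b1 had 40 to 121 reads in each wild-type library and 0 to 3 in each null library. The islets also held acinar RNA in amounts that moved with genotype and age. A list of 28 acinar genes took 2.19% to 6.86% of reads in wild-type and 11.2% to 25.7% in null libraries at P1. At week 8 the same genes took 48.3% to 54.3% in wild-type and 12.5% to 23.5% in null libraries. Each of the 28 genes had reads in every library. A list of 10 beta cell genes took 4.59% to 7.48% of wild-type and 1.25% to 2.99% of null reads at P1, and 2.59% to 5.13% and 11.7% to 13.4% at week 8. In such bulk samples fewer cells of a type cannot be told apart from less RNA per cell. The part of the acinar share in the differences below was not tested, and its values are given beside them.

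Hk1 and Hkdc1 are neighbours on chromosome 10, at 62268855 to 62379908 and 62383137 to 62422491 on the minus strand of GRCm38 (GENCODE M21), 3228 bases apart. The other members are Slc2a1 on chromosome 4 (119108711 to 119137983, plus strand), Slc2a2 on chromosome 3 (28697903 to 28731359, plus strand), Slc2a3 on chromosome 6 (122727809 to 122801640, minus strand), Hk2 on chromosome 6 (82725025 to 82774454, minus strand) and G6pc2 on chromosome 2 (69211073 to 69227841, plus strand). RefSeq promoters on GRCm38.p6 were given for 6 of the 7 genes. The 250 bases before the start are shown for the members that fell in week 8 null islets by the largest amounts or carried most of the transporter RNA, and for both members that rose. Capitals mark ACGTG, the core that hypoxia-inducible factors bind, or its reverse complement CACGT.
Slc2a1: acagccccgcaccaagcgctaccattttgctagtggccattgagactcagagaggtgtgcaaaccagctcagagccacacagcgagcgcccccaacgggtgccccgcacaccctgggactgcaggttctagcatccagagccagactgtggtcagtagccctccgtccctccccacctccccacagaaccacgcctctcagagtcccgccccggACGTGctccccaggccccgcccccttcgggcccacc
Hk2: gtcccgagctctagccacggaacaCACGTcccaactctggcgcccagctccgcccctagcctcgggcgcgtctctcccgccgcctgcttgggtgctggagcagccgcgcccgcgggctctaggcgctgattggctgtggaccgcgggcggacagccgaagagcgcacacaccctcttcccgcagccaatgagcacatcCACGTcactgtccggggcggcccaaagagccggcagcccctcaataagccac
Hkdc1: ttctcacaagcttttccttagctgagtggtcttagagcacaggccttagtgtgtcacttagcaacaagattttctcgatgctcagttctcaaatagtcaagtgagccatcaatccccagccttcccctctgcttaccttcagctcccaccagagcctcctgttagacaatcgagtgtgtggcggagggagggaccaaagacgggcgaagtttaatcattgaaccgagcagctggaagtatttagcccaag
Slc2a2: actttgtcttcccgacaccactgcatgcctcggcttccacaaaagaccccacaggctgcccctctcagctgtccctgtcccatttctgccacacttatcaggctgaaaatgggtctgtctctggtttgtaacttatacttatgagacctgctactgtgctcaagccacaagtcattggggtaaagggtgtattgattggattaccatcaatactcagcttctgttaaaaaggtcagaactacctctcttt
G6pc2: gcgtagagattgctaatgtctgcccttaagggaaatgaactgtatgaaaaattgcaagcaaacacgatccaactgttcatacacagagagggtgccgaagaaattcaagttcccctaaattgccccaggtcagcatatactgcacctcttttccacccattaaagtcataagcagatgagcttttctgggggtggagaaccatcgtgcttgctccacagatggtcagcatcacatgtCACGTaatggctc
The windows lie at chr4:119108495-119108744 (plus), chr6:82774455-82774704 (minus), chr10:62422458-62422707 (minus), chr3:28697653-28697902 (plus) and chr2:69219699-69219948 (plus). RefSeq gives G6pc2 a further start upstream, the one at which GENCODE begins the gene, so the G6pc2 window shown lies inside the gene. On both strands ACGTG was found 2 times before Hk2, 1 time before Slc2a1 and 1 time before G6pc2, and not before Slc2a2 or Hkdc1. It was also absent from the window before the upstream G6pc2 start (chr2:69210823-69211072) and from both Hk1 windows, which are not shown. For comparison, 16.6% of all 32851 promoter windows of this length held it. The palindrome CACGTG, which contains ACGTG, stood in none of these windows and in 6.02% of all. TATAAA on either strand was likewise in none of them and in 12.4% of all. The windows differed in CpG content, with 25 CpG before Hk2, 13 before Slc2a1, 6 before Hkdc1, 5 before G6pc2 and 2 before Slc2a2 against a median of 6 over all promoters.

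At week 8 null islets held more Slc2a2 and G6pc2, and less Slc2a1, Slc2a3 and hexokinase RNA, than wild-type islets on the deposited scale. All 7 members passed the test between genotypes (limma on log2 normalised counts plus 1, Benjamini-Hochberg adjusted p under 0.05 over 18126 genes), with 2 higher (Slc2a2 and G6pc2) and 5 lower (Slc2a1, Slc2a3, Hk1, Hk2 and Hkdc1) in null islets. Over all genes tested 12.3% were higher and 15.8% lower. The values of the genotypes did not overlap for 5 of the 7 members, against 43.6% of all genes. The median log2 difference of the members was -1.09 and that of all genes tested 0.02. Each log2 difference below is null minus wild-type with its SE and n = 3 libraries per group.

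Slc2a2 was at 1847, 3326 and 2182 normalised counts in wild-type replicates 1 to 3 and at 3850, 6973 and 4318 in the null libraries of MUT218, MUT219 and MUT229. Every null library was above every wild-type library. The log2 difference was 1.04 ± 0.25 (adjusted p = 0.013), a 2.06-fold higher mean. Slc2a1 was at 2476, 857 and 1975 in wild-type and at 898, 571 and 680 in null libraries, so wild-type replicate 2 lay inside the null range. Its log2 difference was -1.19 ± 0.33 (adjusted p = 0.025). Slc2a3 was low in islets and was at 138, 127 and 126 in wild-type against 68, 80 and 81 in null libraries. Its values did not overlap, and its log2 difference was -0.77 ± 0.20 (adjusted p = 0.019).

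Among the hexokinases, Hk2 and Hkdc1 fell further than Slc2a1 and Slc2a3, and the fall of Hk1 lay between those of the transporters. Hk2, the insulin-responsive muscle and fat form, was at 436, 325 and 354 normalised counts in wild-type and at 43.0, 63.7 and 39.8 in null libraries. The mean was 7.61-fold higher in wild-type islets, with a log2 difference of -2.92 ± 0.23 (adjusted p = 2.9e-04). Hkdc1, a hexokinase-like protein with weak glucose phosphorylating activity, was at 168, 106 and 139 in wild-type and at 24.8, 48.5 and 18.8 in null libraries. Its log2 difference was -2.21 ± 0.36 (adjusted p = 0.0021) and its groups did not overlap. Hk1, the form of brain and red cells, was at 657, 353 and 534 against 259, 184 and 267. Its log2 difference was smaller, -1.09 ± 0.24 (adjusted p = 0.0078), and its groups again did not overlap.

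G6pc2 was the most abundant member, at 11672, 21829 and 10290 normalised counts in wild-type and at 18913, 27636 and 30147 in null libraries. Wild-type replicate 2 was above null animal MUT218, so the genotypes overlapped. The log2 difference was 0.86 ± 0.28 (adjusted p = 0.044), the closest of the 7 to the threshold.

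**Figure D1:**
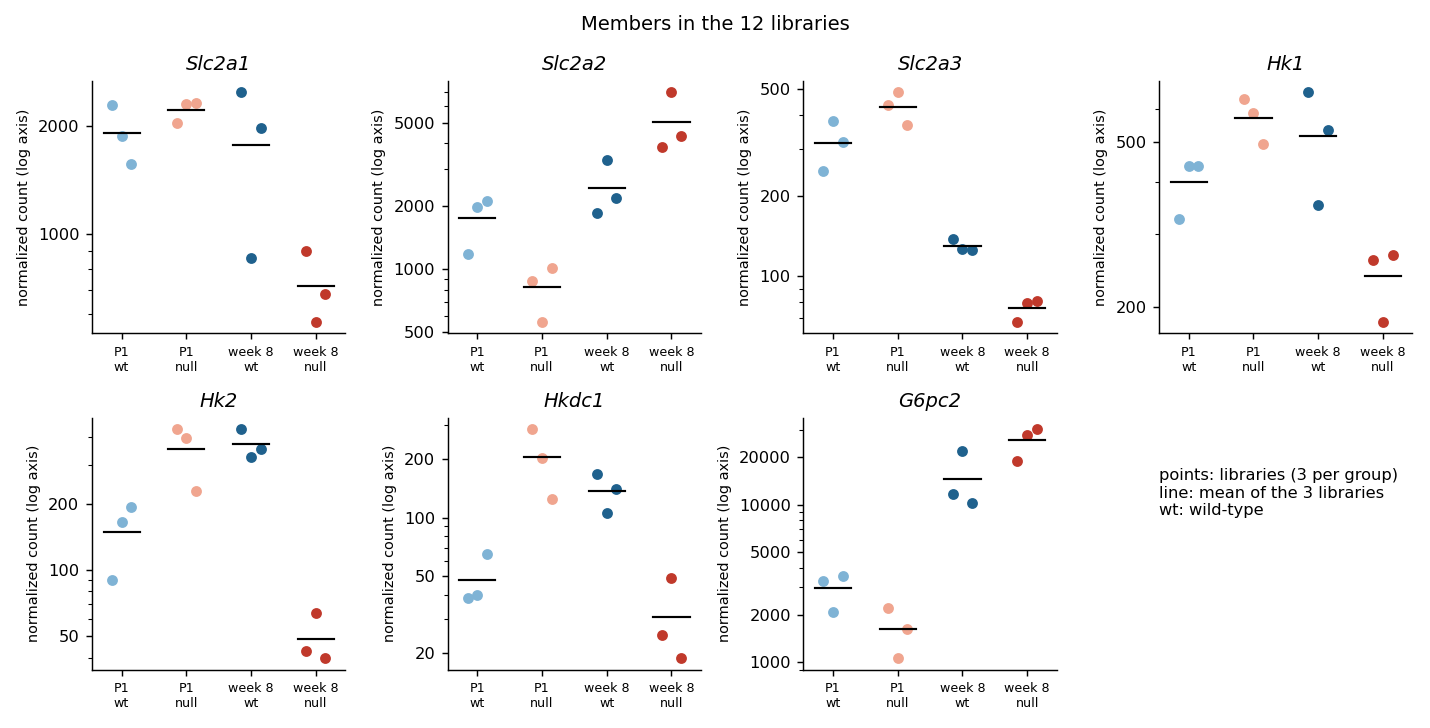
Normalised counts (log axis) of the 7 members in each of the 12 libraries, with points for libraries and a line for the mean of each group of 3. Hk2 and Hkdc1 ran in opposite directions at the 2 ages, above wild-type in all 3 P1 null libraries and below it in all 3 week 8 null libraries.

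Calls for the hexokinases at week 8 held when any 1 library was left out, and those for the transporters and G6pc2 did not. The number of members passing was 3 without wild-type replicate 3, 4 without wild-type replicate 1 and 4 without null animal MUT229. Slc2a2 was lost without wild-type replicate 3 (adjusted p = 0.062). Slc2a1 was lost without wild-type replicate 1 (0.076) or 3 (0.10) and without null animal MUT219 (0.080) or MUT229 (0.076). Without wild-type replicate 2, whose Slc2a1 level stood with the null libraries, the log2 difference of Slc2a1 was -1.65 (adjusted p = 1.5e-04). Slc2a3 was lost without wild-type replicate 1 (0.054) or 3 (0.060) and without null animal MUT218 (0.074) or MUT229 (0.052). G6pc2 was lost without wild-type replicate 1 (0.13) or 3 (0.18) and without null animal MUT219 (0.11) or MUT229 (0.15), in edgeR's quasi-likelihood test on recovered reads (0.058) and with all 12 libraries in a single limma fit (0.061).

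The direction of Slc2a2 and G6pc2 was that of the pan-endocrine and beta cell genes. Of 20 pan-endocrine genes, 16 were higher and 0 lower in week 8 null islets, and of 10 beta cell genes 7 were higher and 0 lower. The 6 alpha cell genes had 7 entries, with Irx2 entered 2 times, of which 1 was higher and 0 lower (median log2 difference -0.35). Of 5 delta and PP cell genes 0 were higher and 1 lower (-0.10). When each library was scaled by the geometric mean of the 20 pan-endocrine genes, the median of all genes shifted to a log2 difference of -0.68 at week 8 and to 0.72 at P1. On that scale Slc2a2 (0.31 ± 0.24, limma adjusted p = 0.30) and G6pc2 (0.13 ± 0.27, adjusted p = 0.71) did not pass at week 8, so that 0 members were higher and 5 lower. Over all genes 7978 of 18050 passed there, in either direction. Hk2 (-3.64 ± 0.30), Hkdc1 (-2.92 ± 0.41), Slc2a1 (-1.92 ± 0.44), Hk1 (-1.82 ± 0.35) and Slc2a3 (-1.49 ± 0.27) passed and lay below the shifted median. Expressed instead as a share of all reads per length, every gene's fold of null over wild-type was multiplied by 2.14 at week 8 (geometric means), where acinar genes took a larger share of wild-type reads. The fold of the means, null over wild-type, then changed from 0.585 to 1.24 for Slc2a3 and from 0.460 to 1.00 for Hk1, and stayed below 1 for Hk2 (0.274), Hkdc1 (0.456) and Slc2a1 (0.887) and above it for Slc2a2 (4.27) and G6pc2 (3.67).

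**Figure D2:**
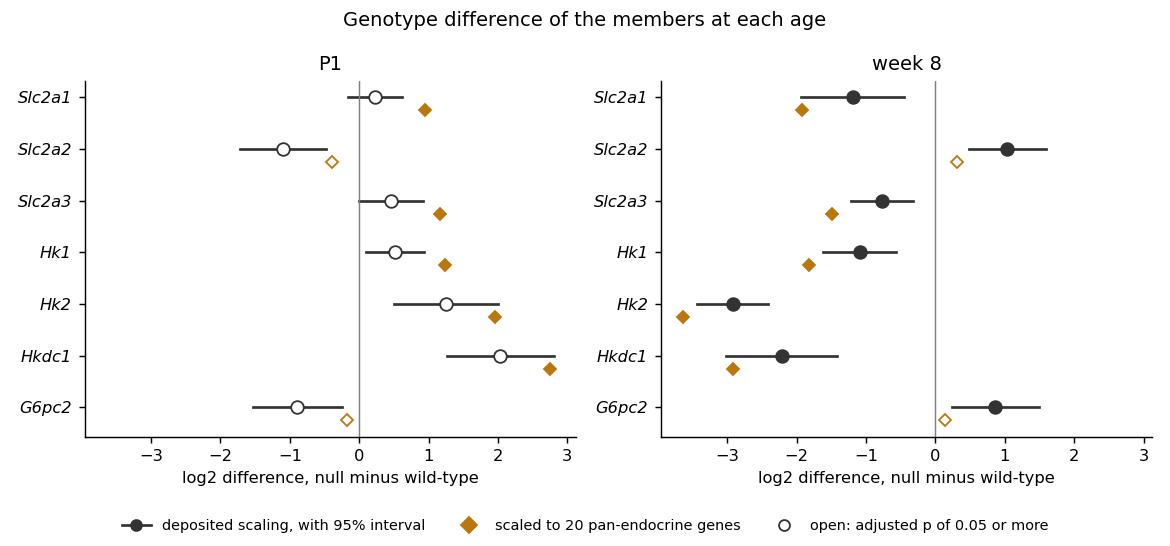
Log2 difference of each member, null minus wild-type, at P1 and at week 8 (circles with 95% intervals: deposited scaling, diamonds: libraries scaled to 20 pan-endocrine genes, filled symbols: adjusted p under 0.05). On both scales the signs at week 8 were opposite to those at P1 for all 7 genes, but as a share of all reads per length this did not hold for Slc2a1 (folds of 0.888 at P1 and 0.887 at week 8), Slc2a3 (0.989 and 1.24) and Hk1 (1.04 and 1.00).

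At P1 none of the 7 members passed the limma test, with 0 called, against 0.0548% of 18235 genes higher and 0.011% lower. At an unadjusted p under 0.05 there were 5, against 2730 of 18235 genes. On recovered reads edgeR's quasi-likelihood test also called 0 members. DESeq2 on the same reads called 3, Hkdc1 (adjusted p = 1.8e-06), Slc2a2 (0.0074) and Hk2 (0.012), against 614 of 15858 genes. The genotypes did not overlap for 4 of the 7 members, against 23.6% of all genes. The median log2 difference was 0.46 for the members and 0.03 for all genes.

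Hkdc1 had the largest P1 difference of the members. It was at 38.7, 39.9 and 64.7 normalised counts in wild-type replicates 1 to 3 and at 285, 203 and 125 in null replicates 1 to 3, without overlap. The log2 difference was 2.04 ± 0.34 with a 95% interval of 1.27 to 2.81 (limma adjusted p = 0.080). It passed when wild-type replicate 1 (0.041), wild-type replicate 3 (0.041) or null replicate 3 (0.029) was left out, and when all 12 libraries were fitted together (0.024). Hk2 was at 90.5, 164 and 194 in wild-type and at 435, 396 and 229.1 in null libraries, again without overlap, with a log2 difference of 1.25 ± 0.33 (adjusted p = 0.16). Hk1 was at 325, 437 and 436 against 632, 587 and 495, a log2 difference of 0.52 ± 0.18 (adjusted p = 0.25). On the deposited scale all 3 hexokinases were thus at higher values in every P1 null library than in any P1 wild-type library, though none passed the test. As a share of all reads per length the P1 fold of null over wild-type was 3.07 for Hkdc1 and 1.67 for Hk2, both still without overlap, and 1.04 for Hk1, whose genotypes then overlapped.

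The transporters and G6pc2 of P1 null islets were at values opposite to those of week 8. Slc2a2 was at 1178, 1989 and 2116 normalised counts in wild-type and at 882, 563 and 1015 in null libraries, without overlap. Its log2 difference was -1.10 ± 0.28 (limma adjusted p = 0.15), and -1.37 (adjusted p = 0.029) without wild-type replicate 1, the wild-type library with the least Slc2a2. Slc2a1 was at 2285, 1879 and 1569 against 2041, 2303 and 2310, a log2 difference of 0.23 with an interval of -0.16 to 0.62. Slc2a3 was at 247, 381 and 317 against 438, 485 and 366 (0.46 ± 0.21), and G6pc2 at 3288, 2097 and 3529 against 2210, 1063 and 1629 (-0.89 ± 0.29). These last 3 genes overlapped between genotypes. On the pan-endocrine scale Slc2a1, Slc2a3, Hk1, Hk2 and Hkdc1 passed as higher at P1 and 0 as lower, with Slc2a1 at 0.94 ± 0.24, close to the shifted median of 0.72. Over all genes 8124 of 18265 passed there, in either direction. As a share of all reads per length the P1 folds of null over wild-type were 0.888 for Slc2a1 and 0.989 for Slc2a3, against 1.16 and 1.36 on the deposited scale.

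The change of the genotype difference between P1 and week 8 was tested in a single fit of all 12 libraries, and all 7 members passed. The week 8 difference minus the P1 difference was higher for 2, Slc2a2 and G6pc2, and lower for the 5 others, against 8.2% of 18338 genes higher and 13.6% lower. Hkdc1 moved by -4.25 ± 0.53 on the log2 scale (limma adjusted p = 2.0e-04) and Hk2 by -4.17 ± 0.43 (7.6e-05). Hk1 moved by -1.61 ± 0.32 (0.0032), Slc2a3 by -1.23 ± 0.27 (0.0061) and Slc2a1 by -1.42 ± 0.42 (0.027). Slc2a2 moved by 2.14 ± 0.42 (0.0029) and G6pc2 by 1.75 ± 0.45 (0.013). Slc2a1 was lost, with adjusted p from 0.058 to 0.076, in 6 of the 12 fits that left out 1 library, namely P1 wild-type replicate 3, P1 null replicate 2, week 8 wild-type replicate 1 or 3 and week 8 null animal MUT219 or MUT229. On the pan-endocrine scale, where the median of all genes shifted to -1.40, Slc2a2 (0.69 ± 0.38, adjusted p = 0.12) and G6pc2 (0.31 ± 0.42, adjusted p = 0.53) did not pass, and Slc2a1 moved by -2.87 ± 0.55 (adjusted p = 4.6e-04). As a share of all reads per length, a scale on which no test was run, the folds of null over wild-type at P1 and week 8 were nearly equal for Slc2a1 (0.888 and 0.887) and Hk1 (1.04 and 1.00) and were higher at week 8 for Slc2a3 (0.989 and 1.24).

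The effect of age was tested within each genotype. The same libraries enter both age comparisons and the genotype comparisons, so the values are set side by side only. From P1 to week 8 in wild-type islets 3 members rose (G6pc2, Hkdc1 and Hk2) and 1 fell (Slc2a3), against 15.9% of genes higher and 16.8% lower. In null islets 2 rose (G6pc2 and Slc2a2) and 5 fell, against 21.2% higher and 25.5% lower. G6pc2 rose in both genotypes, by 2.25 ± 0.31 in wild-type (limma adjusted p = 9.7e-05) and by 4.0 ± 0.31 in null islets (3.2e-07). Its wild-type mean was 4.91-fold higher at week 8 on the deposited scale and 1.27-fold higher as a share of all reads per length. Slc2a2 rose by 2.61 ± 0.30 in null islets (7.7e-06), while its wild-type value was 0.48 ± 0.30 (0.24), and on the share scale its week 8 wild-type mean was 0.339 times that of P1. Slc2a3 fell in both, with -1.25 ± 0.19 in wild-type (2.3e-04) and -2.47 ± 0.19 in null islets (3.1e-07).

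Hk2 and Hkdc1 moved together with age, up in wild-type and down in null islets on the deposited scale. In wild-type islets Hk2 rose by 1.37 ± 0.31 on the log2 scale (limma adjusted p = 0.0035) and Hkdc1 by 1.52 ± 0.38 (0.0064), but as a share of all reads per length, a scale on which every gene was multiplied by 0.250 (geometric means), their week 8 means were 0.606 and 0.720 times those of P1. In null islets Hk2 fell by 2.81 (5.8e-06) and Hkdc1 by 2.73 (4.2e-05), and on the share scale the means were 0.0996 and 0.107 times those of P1. Hk1 was at 0.33 ± 0.23 in wild-type (limma adjusted p = 0.29) and fell by 1.28 in null islets (3.5e-04). On the share scale its folds of week 8 over P1 were close, 0.316 in wild-type and 0.304 in null islets. Slc2a1 was at -0.23 ± 0.30 in wild-type islets (0.60), or 0.23 without week 8 wild-type replicate 2, and fell by 1.65 in null islets (4.3e-04). On the share scale its week 8 mean was 0.232 times that of P1 in wild-type and likewise 0.232 times in null islets.

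The acinar share moved with the hexokinases in part. On the deposited scale, in 3 of the 4 groups the library with the most acinar reads also had the most Hk2 and the most Hkdc1. In 1 of 4, P1 null, it had the most Hk1. As a share of all reads per length the highest Hkdc1 library of each group was the same. Hk2 was then highest in replicate 2 of P1 wild-type (5.84, against 5.77 in replicate 3) and of P1 null (8.52, against 8.37 in replicate 1). Hk1 was highest in P1 null replicate 3 (9.54, against 8.51 in replicate 1). Across genotypes the acinar share, Hk2 and Hkdc1 were higher in null islets at P1 and lower at week 8. The P1 null and week 8 null libraries, which also differ in age and in mice per library, had acinar shares of 11.2% to 25.7% and 12.5% to 23.5%. Hk2 ranged from 229.1 to 435 normalised counts in the former and from 39.8 to 63.7 in the latter. On the same scale week 8 wild-type libraries, at 48.3% to 54.3% acinar reads, had Hk2 at 325 to 436, which overlapped the P1 null libraries. As a share of all reads per length this overlap was absent. Hk2 was then at most 3.55 in week 8 wild-type libraries and at least 6.32 in P1 null libraries. Week 8 null libraries, at most 0.863 there, stayed below the P1 null libraries. Markers of other cells also moved at week 8, where 9 of 9 mesenchyme and stellate cell genes and 7 of 11 endothelial genes were lower in null islets and 0 of either were higher. Of 9 duct genes 6 were lower and 1 higher (median log2 difference -2.15, against -2.21 for the mesenchyme list), and of 10 macrophage and neutrophil genes 3 were lower and 0 higher. The summed reads of the mesenchyme list were 0.0271% to 0.0621% in wild-type and 0.0111% to 0.0256% in null libraries, those of the endothelial list 0.0485% to 0.0683% and 0.0427% to 0.0663%, and those of the duct list 0.0391% to 0.0907% and 0.0359% to 0.0646%. The macrophage and neutrophil list took 0.00557% to 0.00573% in wild-type and 0.00425% to 0.00632% in null libraries. Its members S100a8 and S100a9 were at 0 reads in all 3 null libraries. In wild-type libraries they were near the floor too, with at most 4 and 8 reads and 1 library at 0 for each. Neither passed (limma adjusted p = 0.29 and 0.15). The part of these cells in the differences of the members was not tested.

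**Figure D3:**
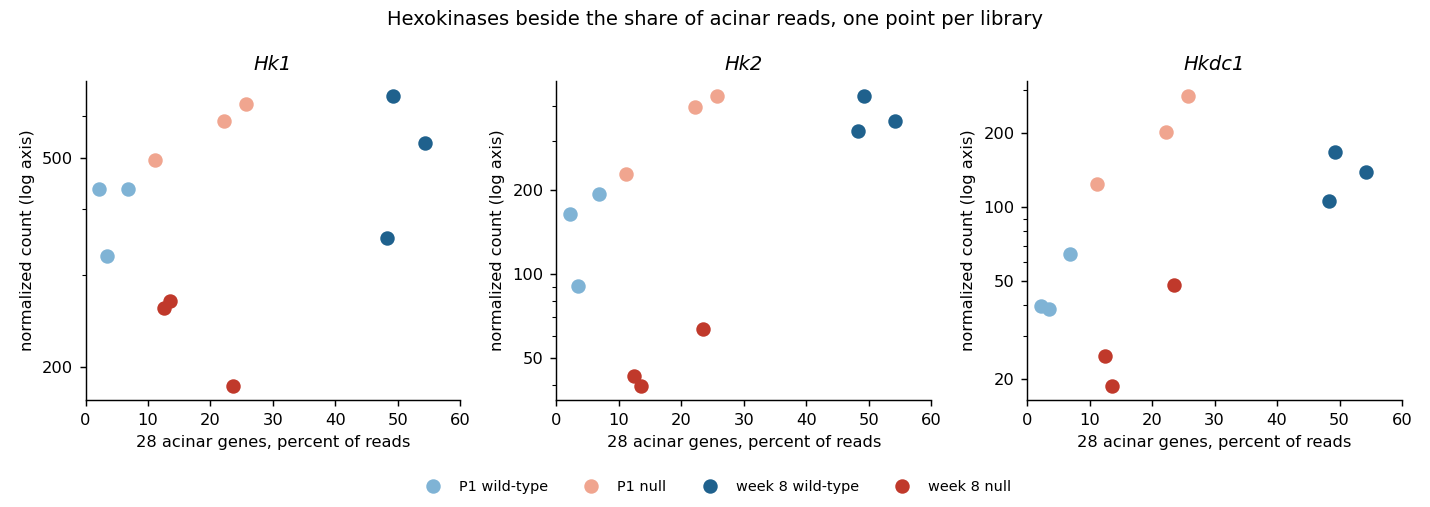
Normalised counts of Hk1, Hk2 and Hkdc1 (log axes) against the percent of reads in 28 acinar genes, with one point for each of the 12 libraries coloured by group. The week 8 null libraries lay below the P1 null libraries for all 3 genes, and these groups also differ in age and in mice per library.

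Levels were compared between genes only after division by the deposited transcript length, as normalised counts per kilobase. G6pc2 had the highest mean in every group, at 1505 ± 388 in P1 wild-type islets and 828 ± 291 in their null counterparts, and at 7395 ± 3192 and 12951 ± 2987 at week 8 (mean ± SD, n = 3). In P1 null islets it overlapped Slc2a1, which was above it in null replicate 2 (807 against 538). Slc2a1 and Slc2a2 overlapped in wild-type islets of both ages (670 ± 126 and 640 ± 185 at P1, 620 ± 290 and 891 ± 282 at week 8). In null islets they were apart at both ages but in opposite order, with Slc2a1 at 777 ± 53.7 and Slc2a2 at 298 ± 84.4 at P1, and Slc2a1 at 251 ± 58.3 and Slc2a2 at 1834 ± 612 at week 8. Slc2a3 was at 43.5 ± 9.25 and 59.3 ± 8.29 at P1 and at 18.0 ± 0.972 and 10.52 ± 1.01 at week 8 in wild-type and null islets. The hexokinases were always below Slc2a1 and Slc2a2, and Hk1 and Hk2 overlapped in wild-type islets at week 8 (60.3 ± 17.9 and 62.2 ± 9.65) and, with Slc2a3 between them, in null islets at P1 (66.9 ± 8.21 and 59.2 ± 18.3). In week 8 null islets Hk1 (27.8 ± 5.34) lay above Slc2a3, and Slc2a3, Hk2 (8.18 ± 2.17) and Hkdc1 (5.98 ± 3.06) each overlapped the next.

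Ratios within a library need no scaling between libraries. The ratio of Slc2a2 to Slc2a1 per length was 0.534, 1.097 and 1.40 in P1 wild-type replicates 1 to 3 and 0.448, 0.253 and 0.456 in P1 null replicates 1 to 3. At week 8 it was 0.773, 4.02 and 1.15 in wild-type and 4.45, 12.7 and 6.58 in the null libraries of MUT218, MUT219 and MUT229. The genotypes did not overlap at either age, and the order was reversed between ages. Of the RNA of the 3 transporters, Slc2a2 made up 26.1% ± 6.16 in P1 null islets and 86.6% ± 5.56 in week 8 null islets, and 46.9% ± 11.7 and 58.3% ± 18.7 in wild-type islets.

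The 3 hexokinases summed to 60.8 to 96.2 normalised counts per kilobase in wild-type and 121 to 202 in null libraries at P1, and to 116 to 183 in wild-type and 41.6 to 42.4 in null libraries at week 8. On the deposited scale the sum was nearly the same in the 3 week 8 null animals, while its parts were not. Hk1 made up 71.6%, 51.8% and 75.2% of it in MUT218, MUT219 and MUT229. As a share of all reads per length the sum was less even, and lowest in MUT219. There Hk1, Hk2 and Hkdc1 were at 1.75, 0.863 and 0.764. They were at 3.27, 0.776 and 0.522 in MUT218 and at 3.16, 0.672 and 0.370 in MUT229. Hkdc1 made up 11.5% ± 2.20 of the sum in P1 wild-type islets and 23.4% ± 3.71 in their null counterparts. G6pc2 was above the sum by 12.3 to 27.4 times in wild-type and 3.08 to 6.84 times in null libraries at P1, and by 32.4 to 94.98 times and 226 to 367 times at week 8. This ratio of G6pc2 to the 3 hexokinases, which leaves out other enzymes that phosphorylate glucose, was thus lowest in newborn null and highest in adult null islets, without overlap between neighbouring groups. With 3 libraries against 3 an exact test of a single ratio could not go below the usual threshold, and none was run.

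**Figure D4:**
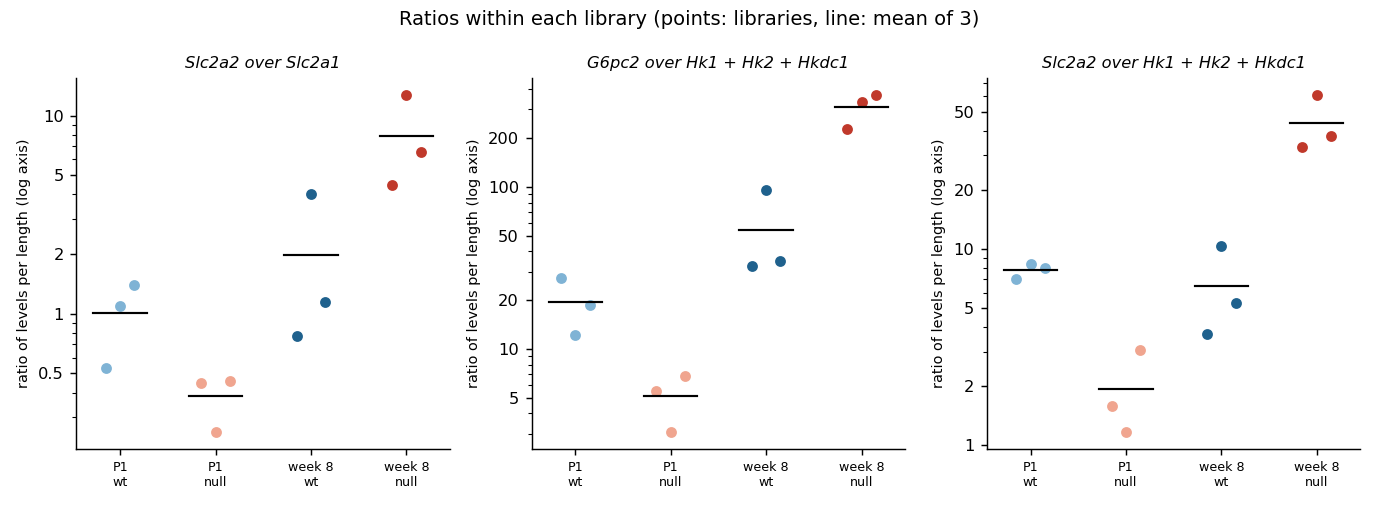
Ratios of levels per length within each of the 12 libraries (log axes, points for libraries, line for the mean of 3): Slc2a2 over Slc2a1, G6pc2 over the sum of Hk1, Hk2 and Hkdc1, and Slc2a2 over the same sum. In each plot the 3 P1 null libraries lie below and the 3 week 8 null libraries above all wild-type libraries.

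Of 8 further Slc2a genes tested, 1 was higher and 1 lower at week 8, and of 4 sodium-glucose cotransporters 0 were higher and 1 lower, against 12.3% higher and 15.8% lower over all genes. Slc2a5, a fructose carrier, was at 1511 to 2049 normalised counts in wild-type and 3202 to 4071 in null libraries, and rose by 1.12 ± 0.15 on the log2 scale (limma adjusted p = 8.5e-04). At P1 it was at 1362 to 1408 in wild-type and 483 to 844 in null libraries, a difference of -1.18 ± 0.21 that did not pass (adjusted p = 0.081). Slc2a10 fell by 1.69 at week 8 (0.025). The cotransporter called was Slc5a1, which was at 55.7 to 189 in wild-type and 7.96 to 16.2 in null libraries and fell by 2.94 (0.0018). No gene of either list passed at P1.

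Of 7 other genes that form or move glucose 6-phosphate, 2 were higher and 0 lower at week 8. Slc37a4, which carries glucose 6-phosphate into the endoplasmic reticulum where G6PC enzymes act, rose by 0.62 ± 0.18 (limma adjusted p = 0.029), and Slc37a1 by 0.61 ± 0.13 (0.0060). Both also passed for the change of the difference between ages, Slc37a4 with 1.95 ± 0.44 (0.0063) and Slc37a1 with 1.04 ± 0.22 (0.0041). Below glucose 6-phosphate, 4 of 24 glycolysis genes were higher and 3 lower at week 8, and 0 passed at P1. Ldha, lactate dehydrogenase A, was at 835 to 1563 normalised counts in wild-type and at 310 to 368 in null libraries and fell by 1.88 (adjusted p = 5.2e-04). The others that fell were Pfkfb3 by 0.92 (0.022) and Gpi1 by 0.46 (0.016). Those that rose were Pfkfb2 with 0.86 ± 0.11 (6.5e-04), Eno2 with 0.72 ± 0.15 (0.0057), Pkm2 with 0.49 ± 0.12 (0.015) and Pklr with 0.69 ± 0.19 (0.020). PFKFB2 and PFKFB3 make the activator of phosphofructokinase, and they moved in opposite directions. Gapdh, which has many near-identical copies in the genome, was counted at 19.8 to 51.8 only, so glycolysis genes with such copies are uncertain here. Of 4 glucose-responsive genes, Pklr was higher and Txnip, a marker of glucose exposure, lower at week 8 (-0.99 ± 0.27, adjusted p = 0.023). Pfkfb3, Gpi1 and Txnip fell by less than the factor of 2.14 that separates the scales at week 8, so as a share of all reads per length they were above wild-type, whereas Ldha, Slc5a1 and Slc2a10 stayed below it.

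**Figure D5:**
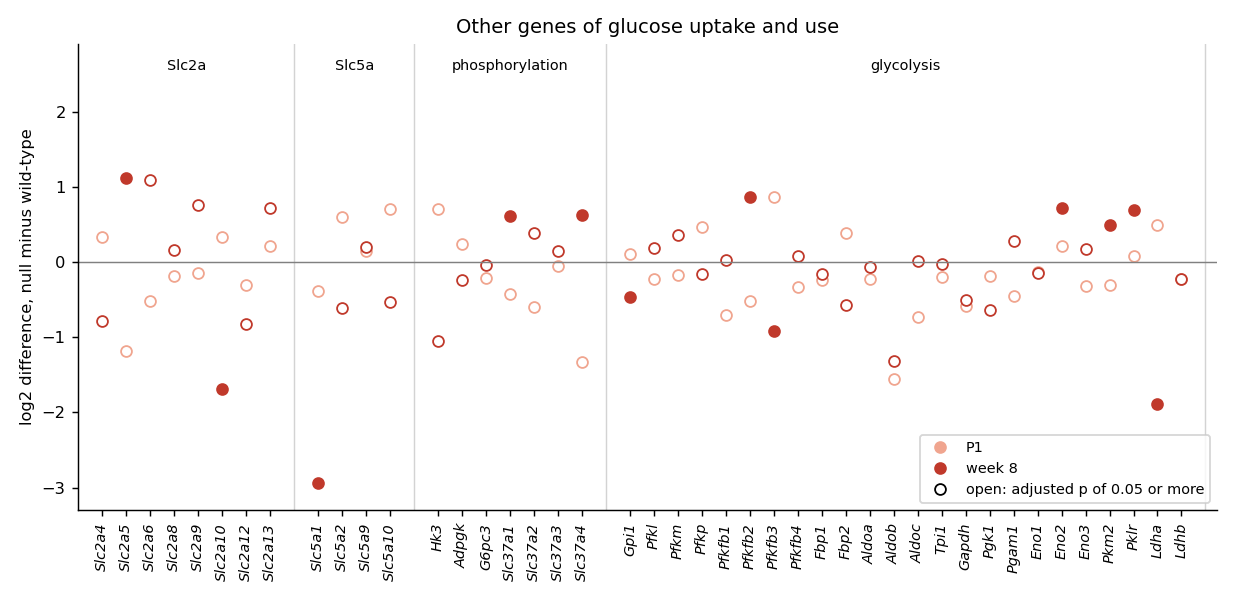
Log2 difference, null minus wild-type, of 43 further genes of glucose uptake, glucose 6-phosphate and glycolysis at P1 and at week 8 (filled: adjusted p under 0.05). No gene passed at P1, and Slc5a1 and Ldha lie lowest at week 8.

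The genes whose pattern over the 12 libraries was most like each member were searched among 11739 genes with a mean of at least 50 by Pearson's r of log2 values, which describes libraries that share age, genotype and cell make-up. For Slc2a2 they were Slitrk6 (0.979), Maob (0.978) and Abcc8 (0.973), the last a subunit of the beta cell potassium channel. For G6pc2 they were D6Wsu163e (0.992), Spc25 (0.990) and Dynlt3 (0.988). For Slc2a3 they were Lamb1 (0.989), Olfml2a (0.986) and Gpr124 (0.985), and for Hk1 Adamts2 (0.982), Svep1 (0.979) and Abi3bp (0.978), with Lamb1 a laminin subunit and Adamts2 a procollagen protease. For Slc2a1 they were Gbp2 (0.989), Foxc2 (0.981) and Cdkn1a (0.981). For Hk2 they were Cachd1 (0.975), Pter (0.975) and Kif1c (0.964). For Hkdc1 they were Tinag (0.953), Try10 (0.949), a trypsinogen of acinar cells, and Pm20d1 (0.947). Among the members themselves r was 0.93 between Hk2 and Hkdc1, 0.89 between Hk1 and Hk2, 0.90 between Slc2a2 and G6pc2, -0.87 between Slc2a2 and Slc2a1, and, the largest in size of all pairs, -0.97 between Slc2a3 and G6pc2.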

How the data were processed

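Poly(A) RNA from islets was read strand-specifically as single reads. The authors deposited, for each gene and library, a normalised count, which is a signal made by dividing reads by a DESeq size factor per library. The deposited table also holds group means and the authors' own comparisons (fold change, its log2 value, p-value and adjusted p-value), none of which was used. The submitters' notes name bedtools 2.11, DESeq 1.10.1 and mm9, and the header an Ensembl annotation. For the aligner, the counting options and any gene filter, the answer is: not given in the sources used here. Within a library, 100% of values were whole multiples of its smallest step (tolerance 0.001), which gave back whole reads.

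Genes with a mean of at least 1 were tested with limma 3.58.1 (trend, R 4.3.3) on log2(value + 1), which understates changes of low genes. Genotypes were compared in separate fits per age, and ages and their interaction in a single fit of 12 libraries, with Benjamini-Hochberg adjustment over all genes and a threshold of 0.05. edgeR 4.0.16 and DESeq2 1.42.0 on recovered reads, other scalings, filters and pseudocounts, and leaving out each library were alternatives. The tests were tried on simulated data. No library repeated another, since chi-square over degrees of freedom was 12.8 to 108 between libraries of a group. Intervals at 95% come from limma, and depth limits only the lowest values, such as 26 reads of Hkdc1 (exact Poisson interval 17.0 to 38.1, counting error only).

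All 7 members are named, with at most 4 higher and 4 lower genes of each other list by smallest adjusted p, and the 3 genes most like each member. The members and lists were chosen with earlier results of these data known. Promoters come from RefSeq on GRCm38.p6 and positions from GENCODE M21, and neither was used to count reads. Plots were drawn in matplotlib 3.10.9 (Python 3.11.15), from tables handled in pandas 2.3.3.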

Additional observations from a re-analysis of the deposited data

Results flagged for a closer look

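The genotype difference changed between P1 and week 8 for each of the 7 genes by the interaction term of limma, given as the week 8 difference minus the P1 difference on the log2 scale. It was -4.25 for Hkdc1, -4.17 for Hk2, -1.61 for Hk1, -1.42 for Slc2a1 and -1.23 for Slc2a3. It was 2.14 for Slc2a2 and 1.75 for G6pc2. As a share of all reads per length, where no test was run, the folds of null over wild-type at P1 and week 8 were 0.888 and 0.887 for Slc2a1, 1.04 and 1.00 for Hk1, and 0.989 and 1.24 for Slc2a3. In the same fit on the deposited scale 3990 of 18338 genes passed.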

How the results depend on the processing

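Of 672 alternative values of the members' log2 differences, 632 kept their direction and their side of the threshold, 25 no longer passed and 14 newly passed. Only 1 turned its sign, the age difference of Slc2a1 in wild-type islets (from -0.54 to 0.23 over the fits that left out 1 library, and 0.23 without week 8 wild-type replicate 2). Many of the 672 could not change direction. Age differences were also refitted without libraries of the other genotype, which leaves the compared means unchanged. The threshold of 0.1 and the replicate block kept the same log2 differences. Shares of all reads per length are not among the 672. The number of members passing at P1 was 0 as reported, 5 after scaling to pan-endocrine genes, 3 with DESeq2, 1 with an adjusted p of at most 0.1, 1 with all 12 libraries in a single fit, and 0 to 2 when a library was left out. At week 8 it was 3 to 7 when a library was left out. For all genes at P1, 12 passed as reported, 8124 after scaling to pan-endocrine genes, 614 with DESeq2, 135 with all 12 libraries in a single fit, 116 with an adjusted p of at most 0.1, 18 with edgeR, 19 with a pseudocount of 10, 4 with a pseudocount of 0.1 and 0 with genes of a mean of at least 50. Scaling to pan-endocrine genes gave 7978 calls at week 8 in place of 5094 and 12592 for the change between ages in place of 3990. In null islets it gave 14010 calls between ages in place of 8558. As a share of reads per length the fold of means was turned between genotypes for Slc2a1 (0.888) and Slc2a3 (0.989) at P1 and for Slc2a3 (1.24) and Hk1 (1.00) at week 8, and between ages in wild-type islets for Slc2a2 (0.339), Hk1 (0.316), Hk2 (0.606) and Hkdc1 (0.720). By Spearman's rho instead of Pearson's r, 2 of the 3 genes most like G6pc2, 0 of those most like Hkdc1 and 1 of those most like each other member were the same.

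P1 replicate numbers are shared between genotypes in the labels, but same-numbered libraries did not deviate together (r of 0.0047, -0.017 and -0.023), so the numbers were not taken to pair them. With the replicate number as a block 0 members passed at P1, and the log2 differences were those reported, with adjusted p from 0.075 for Hkdc1 to 0.59 for Slc2a1. The block moved the count over all genes from 12 to 15. Week 8 animals share no such numbers.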

Other observations

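Spc25, a kinetochore gene named above only for its likeness to G6pc2, lies next to it on chromosome 2 (69193895 to 69206194, minus strand, GRCm38), 4878 bases away and transcribed in the opposite direction. Its normalised counts were 490 to 835 in P1 wild-type, 289 to 482 in P1 null, 1558 to 2331 in week 8 wild-type and 3024 to 4818 in week 8 null libraries. The ratio of G6pc2 to Spc25 stayed between 3.67 and 4.70 over the 6 P1 libraries and between 6.25 and 9.36 over the 6 week 8 libraries. Other genes of S, G2 and M phase had a median of 290 to 527 normalised counts in P1 libraries and of 79.5 to 112 in week 8 libraries. On the deposited scale Spc25 was thus higher at the age at which they were lower. As a share of all reads per length, week 8 over P1 is multiplied by 0.250 in wild-type and by 0.713 in null islets. The wild-type rise of Spc25, from a mean of 702 to 1852, is too small to remain on that scale. Its rise in null islets, from 373 to 3833, remains. This pair was looked at after its values were seen.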
